A study of Mus musculus with 79 samples.

Results

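The comparison concerned Lep, the transcript of the hormone leptin, in quadriceps muscle of the BXD family. BXD strains are inbred lines that each carry a different mosaic of the C57BL/6J and DBA/2J genomes. The 42 CD arrays were ranked by their Lep value, and the 14 highest were set against the 14 lowest across the 22334 named genes other than Lep. The 28 arrays of both groups were drawn from 79 in the series, and the 14 CD arrays in the middle of the ranking stayed out of the fit. The values that chose the groups are therefore the CD values of Lep itself, which are given below as a description.

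About 5 males of a strain and diet were pooled for each array. An array therefore represents a strain, and how animals within a strain vary was not recorded. Mice ate a chow diet (CD, Harlan 2018) throughout, or a high fat diet (HFD, Harlan 06414) from 8 weeks of age, and were fasted overnight before sacrifice at 29 weeks. The high-Lep strains were BXD66, BXD98, BXD92a, BXD85, BXD69, BXD65, BXD68, BXD79, BXD60, BXD63, BXD97, BXD75, BXD44 and BXD71. The low-Lep strains were BXD50, BXD51, BXD101, BXD73, BXD89, DBA/2J, BXD96, BXD45, BXD43, BXD83, BXD90, BXD87, BXD99 and BXD55. The other parent, C57BL/6J, lay in the middle group. The labels place the arrays in 2 batches, with 6 high-Lep and 8 low-Lep CD arrays in batch 1 and 8 and 6 in batch 2. The HFD arrays of the same strains, which had no part in the ranking, comprised 12 of high-Lep and 12 of low-Lep strains. Muscle markers were among the brightest probesets on every array, with Acta1, skeletal muscle actin, between 14.98 and 15.31. Each CD array correlated with the mean of the others at r of 0.990 to 0.995. On HFD the range was 0.984 to 0.995, and the 2 lowest arrays, BXD79 (0.9842) and BXD69 (0.9846), were of high-Lep strains.

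Leptin is made chiefly by white adipocytes in proportion to the fat they store, and acts through its receptor, Lepr, on the hypothalamus and other tissues. Muscle fibres make little of it. A dissected quadriceps also holds adipocytes between the fibres and along the fascia, together with vessels, nerves, fibroblasts and macrophages, and all of their RNA is read on one array. In such bulk tissue, fewer cells of a type and less RNA per cell cannot be told apart.

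Values are scores on a log-type scale that was set to the same mean (8.0) and SD (2.0) for each array, and all differences are in these units. On CD, Lep reached a lowest, median and highest value of 8.49, 9.48 and 10.42 in the high-Lep group and of 7.15, 7.60 and 7.77 in the low-Lep group. The means were 9.46 ± 0.70 (SD, n = 14) and 7.55 ± 0.19 (SD, n = 14), with 8.10 ± 0.125 (SD, n = 14) in the middle group. The spread thus lay mostly within the high group. Just inside the upper limit stood BXD71 with 8.49 and just outside it BXD64 with 8.30, and at the lower limit BXD50 with 7.77 was inside and BXD61 with 7.86 was outside. The largest gap in the ordered values, 0.42, lay within the high group and set 9 strains at 9.27 or more apart from 33 strains at 8.85 or less.

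**Figure D1:**
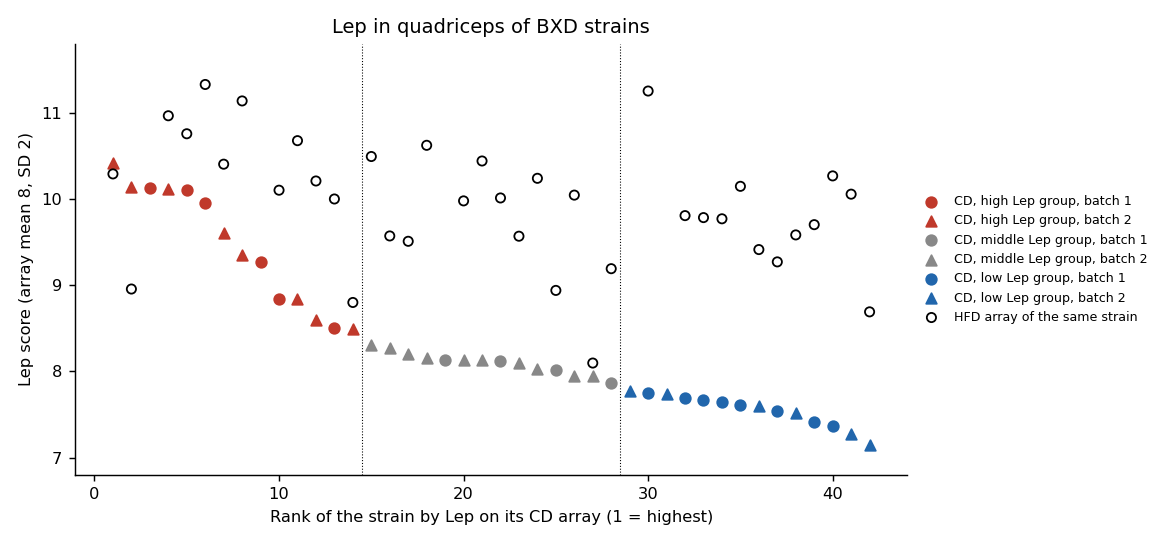
Lep score (y axis, array mean 8, SD 2) of each strain against its rank by Lep on the CD array (x axis). Filled symbols are CD arrays, coloured by Lep group and shaped by batch, open circles are the HFD arrays of the same strains, and dotted lines bound the groups. The highest 9 CD strains stand at 9.27 or above, and the HFD circles lie above the CD symbol of the same strain in all but 2 of the strains with both arrays.

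The Lep start region is shown because Lep set the ranking. It comes from the RefSeq promoter windows, 250 bases before to 50 after a start, on GRCm38.p6 chr6:29059971-29060270, plus strand. Capitals mark TTGCGCAA, a palindromic form of the motif read by C/EBP factors, the TATAA box, and GGGCGG, the motif read by Sp1.
Lep: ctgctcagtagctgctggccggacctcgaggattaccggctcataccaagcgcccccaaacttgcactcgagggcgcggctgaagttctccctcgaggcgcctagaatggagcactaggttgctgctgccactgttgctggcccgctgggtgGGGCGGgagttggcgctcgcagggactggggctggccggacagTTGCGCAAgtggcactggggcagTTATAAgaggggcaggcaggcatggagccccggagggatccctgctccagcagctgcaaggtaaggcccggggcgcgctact
Both strands were searched. TTGCGCAA was found in 60 of 32851 windows (0.183%), TATAA in 24.9% and GGGCGG in 35.7%. In Lep the TATAA letters occurred in 2 overlapping matches, one on each strand. A match to letters is a description of the window and no evidence that a factor binds there.

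The question put to the CD arrays was which other transcripts differ between strains with much and with little Lep. In all, 19 genes passed an adjusted p of 0.05 (limma with batch as a term, Benjamini-Hochberg over all probesets), which is 0.0851% of the genes tested. Of these, 17 were higher in the high-Lep strains (0.0761% of genes) and 2 were lower (0.00895%). At an unadjusted p of 0.05, 1428 genes passed (6.39%), with 925 higher (4.14%) and 503 lower (2.25%), against a median difference over all genes of 0.002. The higher genes included the adipocyte hormone Adipoq, the lipid droplet protein Cidec, the imprinted genes Mest and Nnat, the natriuretic peptide clearance receptor Npr3 and haptoglobin, Hp. The lower genes were Neto2 and Odc1. The ranges of the groups overlapped in all 19, and the share of genes without overlap was 0%. Because arrays were ranked on a value read from the same arrays, these differences describe transcripts that varied together with Lep over strains.

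Among secreted proteins, Hp, which binds free haemoglobin and is made by liver and fat, had the largest difference. Its lowest, median and highest values were 8.17, 9.415 and 10.39 in the high-Lep group and 7.67, 8.13 and 8.42 in the low-Lep group. The difference was 1.235 (SE 0.21, adjusted p = 0.0148), and 10 of 14 high-Lep arrays exceeded every low-Lep array. Adipoq, which encodes adiponectin, ran from 9.51 through 10.06 to 10.74 against 8.57, 9.19 and 10.49. Its difference of 0.89 (SE 0.18) had an adjusted p of 0.0492, just inside the threshold. All 14 high-Lep arrays lay above the low-Lep median for Adipoq, but the highest low-Lep array, BXD51 with 10.49, reached into the upper part of the high-Lep range. Lbp, the lipopolysaccharide binding protein, ran from 9.76 through 10.18 to 10.36 against 9.52, 9.79 and 10.01, a difference of 0.345 (SE 0.065, adjusted p = 0.0296). It was the called gene in which the middle arrays, with a mean of 9.75, did not lie between the low mean of 9.79 and the high mean of 10.13.

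Genes of lipid handling came next. Cidec, which enlarges lipid droplets in white adipocytes, ran from 9.63 through 10.18 to 10.90 in the high-Lep group and from 8.70 through 9.11 to 10.22 in the low-Lep group. Its difference was 0.92 (SE 0.16, adjusted p = 0.0186), and all 14 high-Lep arrays exceeded the low-Lep median. Fads3, a member of the fatty acid desaturase family, had the smallest p of all genes. It ran from 9.18 through 9.645 to 9.81 against 8.88, 9.05 and 9.21. The groups met only at their edges, since 12 high-Lep arrays exceeded every low-Lep array and 13 low-Lep arrays lay below every high-Lep array, with a difference of 0.51 (SE 0.06, adjusted p = 0.000362). Aoc3, an amine oxidase found on the surface of adipocytes, smooth muscle and endothelium, differed by 0.49 (SE 0.09, adjusted p = 0.0325).

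Both imprinted genes were higher. Mest, expressed from the paternal copy and known to rise in fat tissue that is expanding, ran from 8.36 through 9.10 to 9.69 against 7.655, 8.14 and 8.38. It had a difference of 0.91 (SE 0.13, adjusted p = 0.00252), and 13 high-Lep arrays lay above every low-Lep array. Nnat, neuronatin, ran from 8.87 through 9.26 to 9.91 against 7.82, 8.66 and 9.17, a difference of 0.65 (SE 0.11, adjusted p = 0.0131). Mest lies on the chromosome of Lep, with 30 protein-coding genes between them in the RefSeq order, and Cidec is also on that chromosome. The 19 genes were spread over 12 chromosomes. Of the 48 measured genes among the 25 protein-coding neighbours on each side of Lep, 0 were called by limma, where 0.0851% of all genes were, and 1, Ndufa5, had an unadjusted p under 0.05, where 6.39% of all genes did. Counts this small in 48 genes say little about the locus, and the median difference was -0.002.

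Receptors, signalling proteins and transporters made up much of the rest. Npr3, which removes natriuretic peptides from the circulation, ran from 8.99 through 9.46 to 10.07 against 8.45, 8.755 and 9.14. Its difference was 0.71 (SE 0.10, adjusted p = 0.00241), and 12 high-Lep arrays exceeded every low-Lep array. Tshr, the thyrotropin receptor, differed by 0.56 (SE 0.11, adjusted p = 0.0494), and Cd1d1, which presents lipids to natural killer T cells, by 0.55 (SE 0.11, adjusted p = 0.0392). In both, 12 of 14 high-Lep arrays lay above the low-Lep median. Gnai1, an inhibitory G protein subunit, differed by 0.385 (SE 0.07, adjusted p = 0.0266). Slc5a3, a sodium-coupled myo-inositol transporter, differed by 0.34 (SE 0.055, adjusted p = 0.00871), and the middle arrays, at a mean of 8.16, were close to the low-Lep mean of 8.13. Slc7a10, a neutral amino acid transporter on white adipocytes, differed by 0.33 (SE 0.07, adjusted p = 0.0488).

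The other higher genes were Mmd, Sncg and Odz4. Mmd encodes a membrane protein of the progestin and adiponectin receptor family, and differed by 0.595 (SE 0.11, adjusted p = 0.0249). Sncg, gamma-synuclein, is abundant in adipocytes and in peripheral neurons. It ran from 10.01 through 10.45 to 10.97 against 9.54, 9.81 and 10.32, a difference of 0.57 (SE 0.10, adjusted p = 0.0138). Odz4 is an older name for Tenm4, a teneurin, and had the smallest called difference, 0.30 (SE 0.05, adjusted p = 0.0249).

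The 2 lower genes were Neto2 and Odc1. Neto2, an auxiliary subunit of kainate receptors, ran from 8.05 through 8.60 to 9.18 in the high-Lep group and from 8.86 through 9.52 to 10.03 in the low-Lep group. Its difference was -0.79 (SE 0.13, adjusted p = 0.0131), and no high-Lep array reached the low-Lep median. The middle arrays stood with the low-Lep arrays, at a mean of 9.32 against 9.40. Odc1, ornithine decarboxylase, the rate-limiting enzyme of polyamine synthesis, ran from 9.96 through 10.56 to 11.49 against 10.71, 11.25 and 11.99. It differed by -0.77 (SE 0.145, adjusted p = 0.0304), while a second probeset with that symbol differed by -0.77 (SE 0.19) with an adjusted p of 0.181.

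**Figure D2:**
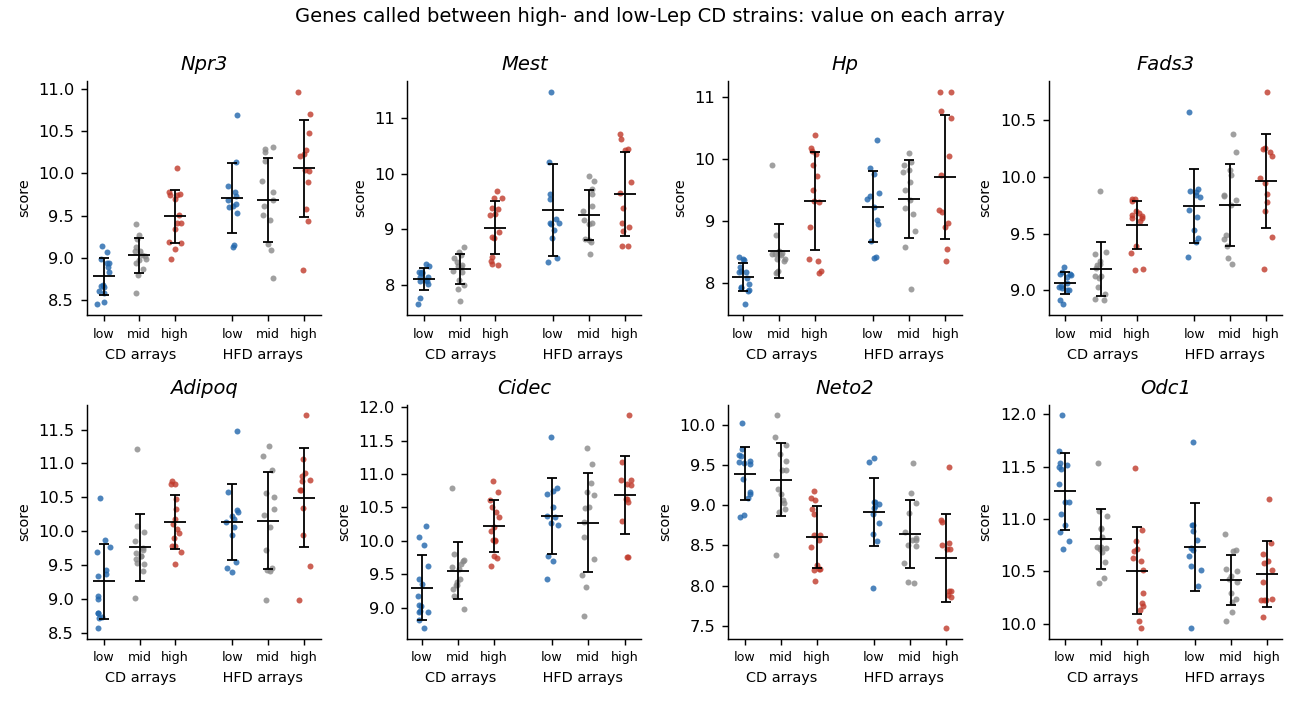
Score of 8 called genes (y axes) on each array, grouped on the x axes by diet and by the CD Lep group of the strain (low, middle, high). Points are arrays, horizontal bars are means and whiskers are SDs. On CD the high-Lep arrays stand above the low-Lep arrays for 6 genes and below them for Neto2 and Odc1, with overlap in each. On HFD the overlap is wider.

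How far the calls rest on single arrays was examined by leaving out each of the 28 in turn. Between 8 and 33 genes were called, and the 19 kept their sign in all 28 fits, as fits that share nearly all of their arrays mostly do. Fads3, Hp, Mest, Neto2, Nnat, Npr3, Slc5a3 and Sncg were called in every fit. Tshr was called in 5 of 28, Adipoq in 7, Cd1d1 and Slc7a10 in 10, Aoc3 in 12, Lbp in 14, Odc1 in 18, Gnai1 in 22, Odz4 in 24, Mmd in 25 and Cidec in 27. The count moved by over 1.5 times without BXD69 (8 genes), BXD60 (10), BXD92a or BXD55 (11 each), BXD65, BXD45, BXD87 or BXD99 (12 each) and BXD44 (33). Each array other than BXD44, BXD71 and BXD51 cost at least 1 of the 19 calls when left out. Within batches no gene was called. The median over the 17 higher genes was 0.48 in batch 1 and 0.64 in batch 2, with the sign of all 19 kept in each, which the choice of the genes on these same arrays largely fixes. At an unadjusted limma p of 0.05, 1409 genes passed in batch 1 alone and 1346 in batch 2 alone.

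As a description over all 42 CD arrays, the genes most correlated with Lep were Npr3 (r = 0.88), Mest (0.84), Hp (0.83), Fads3 (0.80), Mmp12 (0.78), Sncg (0.76), Nnmt (0.755) and Cidec (0.74). Mmp12, a macrophage elastase, differed by 0.54 between the groups (SE 0.13, adjusted p = 0.166) and Nnmt, nicotinamide N-methyltransferase, by 0.32 (SE 0.07, adjusted p = 0.0795), so neither passed. The lowest correlations were those of Odc1 (-0.685), Neto2 (-0.68), Gm15470 (-0.66) and Cars, the cysteinyl-tRNA synthetase (-0.60). The middle group lay between the outer groups in 18 of the 19 genes. Over the 19, the middle mean had covered a median of 31.9% of the distance from the low to the high mean, beside 28.6% for Lep itself.

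**Figure D3:**
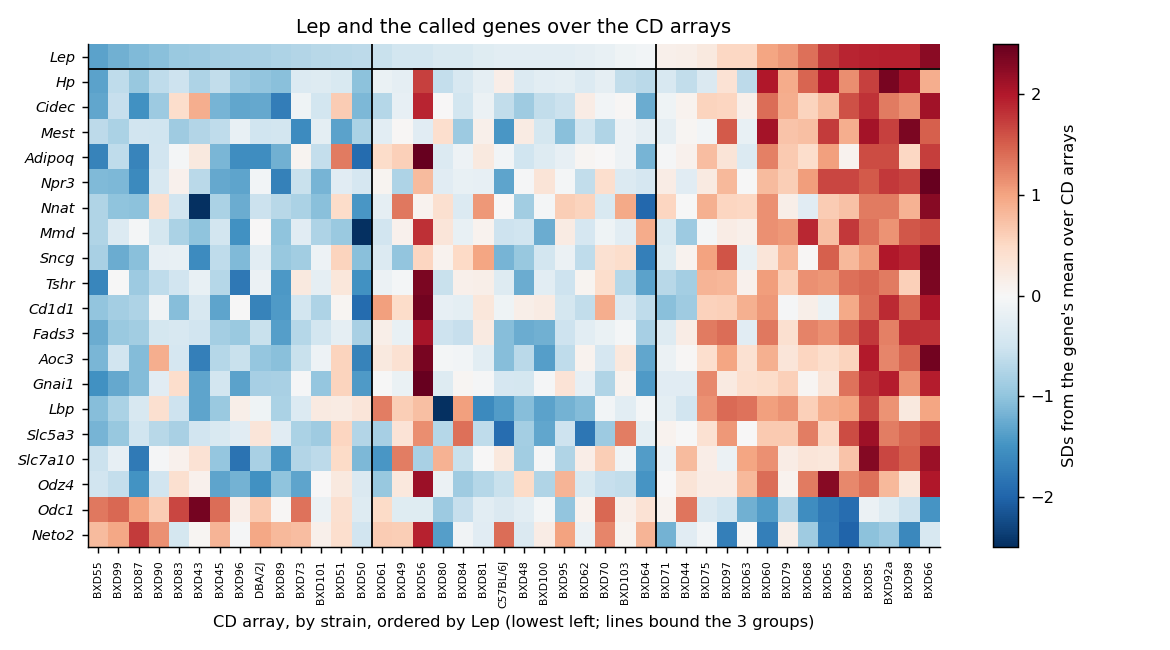
Lep and the 19 called genes (rows) on the 42 CD arrays (columns, ordered by Lep from lowest at left). Colour gives the distance from the gene's mean over CD arrays in SDs, and black lines bound the low, middle and high groups. The called-higher genes turn red towards the right, and BXD56, in the middle group, is red for most of them at a Lep score of 7.95.

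Strain BXD56 had low Lep beside high scores of several called genes. Its CD array had a Lep score of 7.95, in the lower part of the middle group, yet its Adipoq score of 11.22 and Cidec score of 10.79 were above the high-Lep medians. It exceeded the high-Lep median in 11 of the 17 higher genes. It had the highest mean of the adipocyte list among CD arrays, 10.25. For Mest, at 8.33, and Npr3, at 9.40, it did not exceed that median, and its Neto2 score of 10.12 was above every low-Lep array. BXD51, of the low-Lep group, stood 4th by that list on CD with 9.66 and had a Lep score of 7.75. The choice of both strains was made with their values in view.

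The gene lists set these single genes beside their pathways. Of 20 measured adipokine and adipocyte genes, 4 were higher, namely Adipoq, Cidec, Slc7a10 and Sncg, and none was lower, where 0.0761% of all genes were called higher and 0.00895% lower. When single arrays were left out, Adipoq was called in 7 and Slc7a10 in 10 of 28 fits, against 27 for Cidec and 28 for Sncg. The median difference of the list was 0.18, and 17 of 20 were above 0, beside 11545 of 22334 genes overall. Cfd, the adipokine adipsin, went the other way at -0.47 (SE 0.17, adjusted p = 0.699), and did not pass. The mean of the list per array ranged from 9.305 to 9.78 in the high-Lep group and from 9.09 to 9.66 in the low-Lep group. The dimmest member, Acvr1c, had a low-Lep mean of 7.19. How much of the difference in Lep and in the called genes moves with the adipocyte content of the dissected muscle was not tested.

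Of 9 genes known to follow the expansion of adipose tissue, 4 were higher (Mest, Npr3, Nnat and Lbp), beside 0.0761% of all genes, with a list median of 0.345. Lbp was called in 14 of the 28 fits that left out an array, and the other 3 in all 28. Trp53inp2 was the only member below 0, at -0.06. None of 21 fatty acid synthesis genes was called, with a median of 0.04 and the largest difference in Dgat2, which makes triglyceride (0.41, SE 0.15, adjusted p = 0.684), followed by Agpat2 (0.29, SE 0.11, adjusted p = 0.738). Of 17 lipid droplet and lipolysis genes only Cidec was called, and the median was 0.02. The brown adipocyte list had a median of -0.01 and no call, with 5 of 10 genes above 0. Its largest differences were those of Elovl3 (-0.20) and Ucp1 (-0.13, or -0.05 without BXD83). Of 13 acute phase genes Hp alone was called, and the median was 0.09.

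Lepr, the leptin receptor, at means of 7.43 and 7.49 in the high-Lep and low-Lep groups, differed by -0.06 (SE 0.09, adjusted p = 0.978). None of 25 leptin signalling genes was called, where 0.0851% of all genes were, and 13 lay above 0, beside 11545 of 22334 genes. Their median of 0.003 stood beside 0.002 over all genes, and these shares are near the background. Fos had the largest difference, 0.30 (SE 0.13, adjusted p = 0.812), and that of Cish, a STAT5 target, was -0.18 (SE 0.21, adjusted p = 0.975). The 15 insulin and glucose uptake genes held no call, which at 0.0851% of all genes called says little about so short a list, and had a median of -0.04, Irs1 at -0.18 and Grb10 at 0.18.

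None of 28 genes of fatty acid uptake and oxidation was called, but 24 were above 0, 12 had an unadjusted p under 0.05 in the higher direction and none in the lower, where 4.14% and 2.25% of all genes did, and the median was 0.16. Ech1, a peroxisomal and mitochondrial isomerase, differed by 0.37 (SE 0.09, adjusted p = 0.235), and Acaa2, a thiolase, by 0.34 (SE 0.11, adjusted p = 0.612). With Lep as a continuous covariate over the CD arrays Ech1 passed (limma adjusted p = 0.0417). The contractile lists held no call. The slow fibre list had a median of -0.16 with 3 of 11 above 0, and its SEs were wide, as for Myl2 (-0.33, SE 0.31, or -0.22 without BXD50) and Tnni1 (-0.33, SE 0.27). The fast fibre list had a median of -0.04 over 12 genes, with Mylpf at -0.07 and Casq1 at -0.06. The list of fasting, FOXO and glucocorticoid genes, 19 in number, had a median of -0.045, with Zbtb16 at -0.275 and Eif4ebp1 at -0.27.

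**Figure D4:**
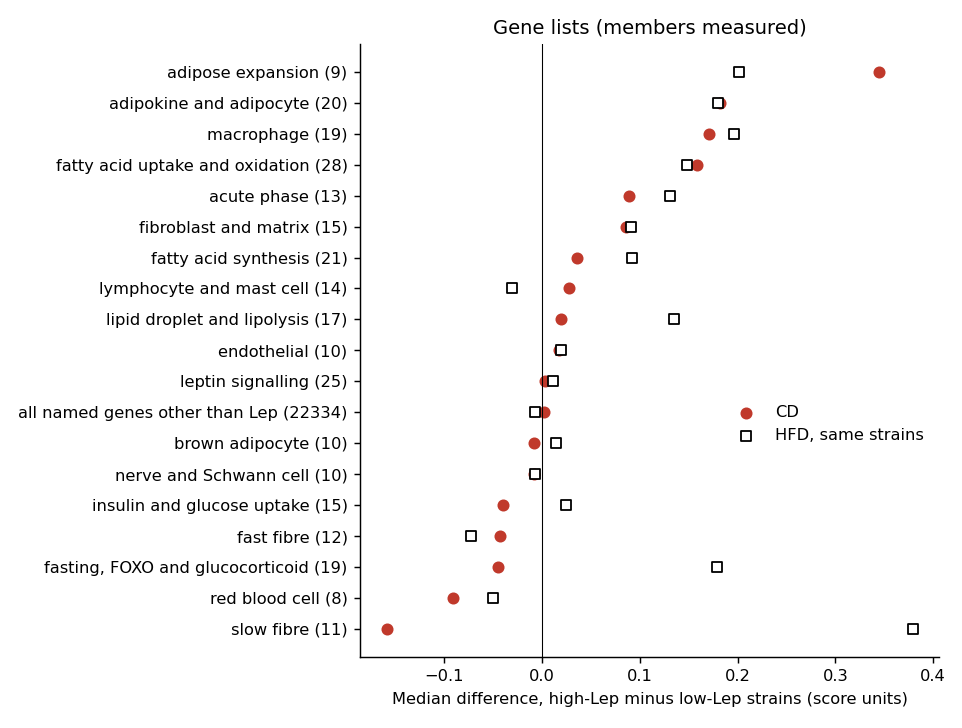
Median difference between high-Lep and low-Lep strains (x axis, score units) of each gene list (y axis, members measured in parentheses) on CD (filled circles) and on the HFD arrays of the same strains (open squares). The adipose expansion list is farthest to the right on CD at 0.345, and the slow fibre list stands at -0.16 on CD and 0.38 on HFD.

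No gene of the macrophage, fibroblast, lymphocyte and mast cell, endothelial, nerve or red blood cell lists was called between the CD groups, where 0.0851% of all genes were. With Lep as a continuous covariate over all 42 CD arrays, some members passed by limma. These were Ctss (adjusted p = 0.00195), Atp6v0d2 (0.0297) and Tyrobp (0.0419) of the macrophage list and Sparc (0.00695) of the fibroblast list. All 19 macrophage genes lay above 0, beside 11545 of all 22334 genes, and 11 had an unadjusted limma p under 0.05 in the higher direction, beside 4.14% of all genes. The median of the list was 0.17. Gpnmb, a gene of lipid-laden macrophages, differed by 0.53 (SE 0.17, adjusted p = 0.580) and Atp6v0d2 by 0.38 (SE 0.16, adjusted p = 0.768). The Atp6v0d2 score of BXD98 was 8.06, with the next high-Lep array at 6.35, and the difference was 0.26 without it. The macrophage mean per array ranged from 8.28 to 8.695 in the high-Lep group and from 8.07 to 8.43 in the low-Lep group. Of 15 fibroblast and matrix genes 14 were above 0, with a median of 0.09. Sparc came closest to a call between the groups (0.285, SE 0.06, adjusted p = 0.105), with Postn at 0.28. Without BXD101 Sparc passed (0.31, limma adjusted p = 0.0458). The lymphocyte and mast cell list had a median of 0.03, with the mast cell proteases Cpa3 at 0.395 and Mcpt4 at 0.25. The endothelial (0.02, with Vwf at 0.08 and Emcn at 0.07), nerve and Schwann cell (-0.01, with Prx at 0.13 and Nefl at 0.12) and red blood cell lists (-0.09, with Hba-a2 at -0.31 and Hba-a1 at -0.30) held no call. Both globin values depended on the high-Lep array BXD65, which had 10.02 for Hba-a2 and 10.10 for Hba-a1, and were -0.15 each without it. For Hba-a2 the difference was -0.595 in batch 1 and -0.02 in batch 2. The ranges of the array means overlapped between groups for macrophages. The part of these cells in the differences of the called genes was not tested.

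Whether the contrast recurred in samples that the ranking did not use was asked on the HFD arrays. These came from the same strains, so they carry over differences between those strains and add no new strain to the contrast. Lep itself had a lowest, median and highest value of 8.80, 10.35 and 11.33 in the 12 high-Lep strains and of 8.69, 9.78 and 11.25 in the 12 low-Lep strains. The means were 10.30 ± 0.78 (SD, n = 12) and 9.81 ± 0.62 (SD, n = 12), beside 9.75 ± 0.71 (SD, n = 13) in the strains of the middle group. The difference of 0.49 did not pass a two-sided permutation test with 100000 resamples (p = 0.105). It was 0.61 with batch as a term (SE 0.30), with an unadjusted limma p of 0.0504, close to the threshold, and an adjusted p over all probesets of 0.994. Within batches it was 0.55 in batch 1, with 3 and 8 arrays (exact permutation p = 0.23), and 0.66 in batch 2, with 9 and 4 arrays (exact permutation p = 0.193).

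The result for Lep on HFD depended on which strains were included. With the 10 highest and 10 lowest CD strains, of which 8 and 10 had an HFD array, the difference was 0.82 (exact permutation p = 0.0123), and with the 7 highest and 7 lowest it was 0.88 (exact permutation p = 0.042). Splitting all strains into 21 and 21 gave 0.56 (permutation p = 0.0183). Without BXD51, the low-Lep strain with an HFD score of 11.25, the difference was 0.62 (permutation p = 0.0313). Without BXD98 it was 0.61 (permutation p = 0.0378) and without BXD71 it was 0.63 (permutation p = 0.0283). These are high-Lep strains whose HFD scores were 8.96 and 8.80. BXD51, BXD98 and BXD71 had HFD scores that ran against their group, so leaving them out enlarges the difference. No other array left out gave a p under 0.05. Those p-values ran from 0.0904 without BXD87 (difference 0.53) to 0.185 without BXD55 (difference 0.39), by the same permutation test. A Gaussian mixture with 2 components split the CD values into a lower and a higher cluster, and correlations between diets are given within each. Such a split narrows the range of CD Lep in each cluster. Over all 37 paired strains, a limma slope of HFD Lep on CD Lep was 0.748 when scaled to the distance between the groups (unadjusted p = 0.00362). The lower cluster had 30 paired strains, with a Pearson r of 0.225 (permutation p = 0.232), a Spearman rho of 0.275 (permutation p = 0.14) and an r of 0.12 without the 2 strains farthest from the median. Among the 7 of the higher cluster r was -0.36 (exact permutation p = 0.43) and rho -0.64 (exact permutation p = 0.137). In the higher cluster r was -0.37 without the 2 farthest strains. After Benjamini-Hochberg adjustment over these 4 correlations the p-values were between 0.28 and 0.43. Within batches of the lower cluster r was 0.025 over 11 strains with both arrays in batch 1 (permutation p = 0.939). It was 0.375 over 12 with both in batch 2 (permutation p = 0.229) and 0.87 over 7 whose arrays were in different batches (permutation p = 0.00524). The higher cluster held too few strains to divide by batch.

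No gene was called on HFD (0 of 22334, limma, adjusted p of 0.05), and 893 had an unadjusted p under 0.05 (4%), 423 in the higher (1.89%) and 470 in the lower direction (2.1%). The Student t-test that the study names for arrays also called 0 genes. With each HFD array left out in turn, no gene was called and all 19 signs were kept. The median over the 17 higher genes was 0.25 without BXD79 and 0.32 without BXD69, the arrays of lowest correlation with the rest. Leaving out BXD44 raised that median from 0.295 to 0.46 and gave 10 of the 19 genes an unadjusted limma p under 0.05, against 7 without BXD51, 6 without BXD71, 4 without BXD98 and 1 without BXD65, BXD73 or BXD55. All 19 genes called on CD had the same sign on HFD, where 58.7% of all named genes did. Each of the 19 varied with Lep over the CD arrays (r of at least 0.55 in size), so these are not 19 separate agreements. Their HFD differences were smaller than those on CD in all 19. Over the 17 higher genes the median was 0.56 on CD and 0.295 on HFD, with an HFD range of 0.15 to 0.55. Single HFD differences lay within 2 SEs of 0 in all but 2 genes, as for Hp (0.55, SE 0.345), Adipoq (0.395, SE 0.28), Mest (0.35, SE 0.34) and Npr3 (0.42, SE 0.21). Neto2 (-0.63, SE 0.21, p = 0.00617) and Lbp (0.28, SE 0.12, p = 0.0241) had an unadjusted limma p under 0.05, though their adjusted p was 0.994. Batches were unevenly divided on HFD, with 3 high-Lep and 8 low-Lep arrays in batch 1. Within batch 1 the median over the 17 genes was 0.09 and 17 of the 19 signs were kept, Mest (-0.09) and Nnat (-0.03) being the exceptions, and within batch 2 it was 0.44 with all 19 signs kept.

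**Figure D5:**
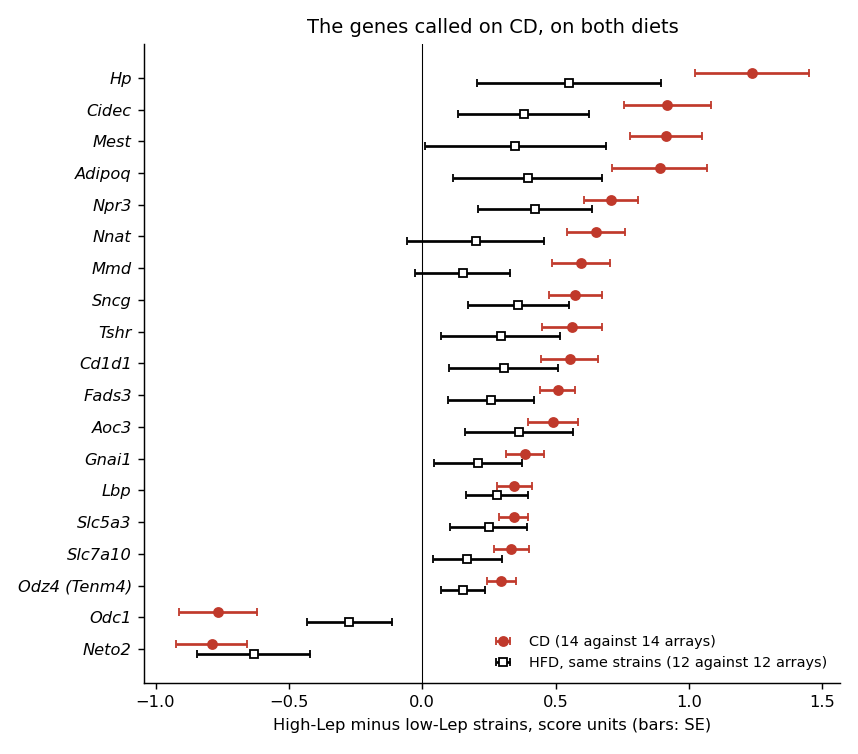
Difference between high-Lep and low-Lep strains (x axis, score units, bars are SEs) of the 19 genes called on CD (y axis), on CD (filled circles, 14 against 14 arrays) and on HFD arrays of the same strains (open squares, 12 against 12). Every HFD square lies on the side of its CD circle and nearer to 0.

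Gene lists on HFD were read in the same way. The adipokine and adipocyte list had a median of 0.18 with 19 of 20 genes above 0, and the adipose expansion list 0.20. The fatty acid uptake and oxidation list had 27 of 28 genes above 0 and a median of 0.15, and the macrophage list 19 of 19 and 0.20. Over all genes 10311 of 22334 lay above 0 and the median was -0.01. Dgat2 stood out among the fat genes, with 0.50 (SE 0.12, unadjusted limma p = 0.000471, adjusted p = 0.994) beside 0.41 on CD. The slow fibre list, at -0.16 on CD, had a median of 0.38 with all 11 genes above 0 on HFD, and the fasting list went from -0.045 to 0.18 with 17 of 19 above 0. Whether these lists differed between diets was not tested. No list held a called gene on HFD.

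A last description concerns sequence. Of the 19 called genes 14 had at least one RefSeq promoter window, and Aoc3, Cd1d1, Hp, Lbp and Tshr had none in the table. The C/EBP palindrome of the Lep window was in none of the 14. Its looser form TTGCNNAA, searched on both strands, was in 3 of the 14 genes (21.4%), beside 12.2% of all 27025 genes with a window. The stretches are shown with the matching letters in capitals, next to that of Lep, so that the similarity and its limits can be seen.
Lep: tggccggacagTTGCGCAAgtggcactggg
Cidec: ggagggctctaTTGCTCAAgggcccatggg
Mest: gcatggggcccTTGCAGAAccaggggaagg
Neto2: ggtcataaccaTTCAGCAAtatctggttaa
They lie on GRCm38.p6 at chr6:29060155-29060184 (plus strand), chr6:113434944-113434973 (minus), chr6:30733340-30733369 (plus) and chr8:85691201-85691230 (minus). Counted from the start that the matching window was built on, the first capital stands at -55, -198, -155 and -210. Cidec and Mest were higher and Neto2 lower in the high-Lep strains. GGGCGG was in 9 of the 14 genes (64.3%) against 38.2% of all genes, and TATAA in 3 (21.4%) against 28%.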

How the data were processed

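Quadriceps RNA of 42 strains was measured on Affymetrix Mouse Gene 1.0 ST arrays, 42 on CD and 37 on HFD. The authors deposited 1 table of 35556 probesets by 79 arrays, and the labels' processing notes name Affymetrix Expression Console. The deposited values are a score on a log-type scale from 2.628 to 16.107, with each array at a mean of 8.0 and an SD of 2.0. Such rescaling removes any difference in overall level or spread between arrays. The log base, summarization and background steps are not given in the sources used here, so differences are not turned into folds. The planned test assumed log2 values, and the same linear model was run on the scores. Precision is limited by the number of arrays.

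CD arrays were ranked on the single Lep probeset, and the 14 highest and 14 lowest were compared with limma 3.58.1 in R 4.3.3, with batch as a term and Benjamini-Hochberg adjustment over all probesets other than that of Lep, at a threshold of 0.05. HFD arrays of the same strains were fitted in the same way. CD and HFD groups share strains, not arrays. Of 26221 probesets with a symbol, the one of highest mean stood for each of 22335 genes. Arrays of a group are different strains, so p-values measure the spread between strains. Permutation tests were two-sided. Those of differences of means used SciPy 1.17.1, exact or with 100000 resamples, and those of correlations used 100000 random resamples. The column labelled BXD92 was taken as strain BXD92a. Groups came from the ranking, batches from the labels. The fit was also run on simulated independent normal values with known changes. Those data hold neither correlated genes nor a ranking on a measured gene, so the run does not test the calls made here.

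The members, the 18 gene lists and the tests were chosen with earlier results of these data known. The naming rule took Lep, Lepr, the 12 largest called differences in each direction (all called where fewer), up to 4 called members of each list or the 2 largest uncalled ones, and the 8 genes of highest and 4 of lowest correlation with Lep. Gnai1, Slc5a3, Odz4, Cfd, Acvr1c, Trp53inp2 and Ndufa5 were named after their values were seen. Alternatives were other group sizes, batch handling, scaling, filters on dim probesets, tests and left-out arrays. Promoter windows came from RefSeq (GRCm38.p6).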

Additional observations from a re-analysis of the deposited data

How the results depend on the processing

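On CD, the count of 19 genes became 0 within batch 1 alone, within batch 2 alone and with 21 against 21 strains (1111 genes at an unadjusted limma p of 0.05 in the last), 33 with 10 against 10, 11 with 7 against 7 and 66 with Lep as a continuous covariate, which kept 18 of the 19. It was 24 without the batch term, 27 of 12563 genes without dim probesets, 20 after median centring, 17 without BXD63 and 14 without the parental strain DBA/2J. The methods' t-test called 14 genes after Benjamini-Hochberg. Leaving out each array, an alternative chosen after seeing the data, gave 8 to 33 genes on CD. The 19 genes did not reverse in any planned setting. The HFD count was 0 in every setting run.

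The HFD difference in Lep became 0.824 with 10 against 10 strains, 0.881 with 7 against 7 and 0.56 with 21 against 21, each with an unadjusted permutation p under 0.05. With Lep as a continuous covariate it was 0.748, with an unadjusted limma p of 0.00362. That value is a slope over all paired strains of both clusters, scaled to the distance between the groups. Left-out arrays gave group differences from 0.388 to 0.627, which passed the permutation test only without BXD98, BXD71 or BXD51. The correlation of Lep between diets in the lower cluster was 0.866 among strains with arrays in different batches. Signs reversed for Cish in batch 2 alone (0.039), Casq1 in batch 1 alone (0.061), Emcn in batch 1 alone (-0.006) and with 21 against 21 (-0.032), Nefl in batch 2 alone (-0.097), and Lepr in batch 2 alone (0.021) and with 10 against 10 (0.001), none of them called. With single CD arrays left out, the small uncalled differences of Casq1, Cish, Emcn, Lepr and Trp53inp2 also moved by over 1.5 times. The causes were not tested. Ranking on another Lep probeset was not run because the table holds 1. No paired analysis was possible because the high-Lep and low-Lep groups hold different strains and share no replicate number. The animals pooled within each strain, the unknown log base and the rescaled arrays limit what these differences measure.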

Other observations

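With Lep as a continuous covariate over all 42 CD arrays, 48 genes passed that the comparison of groups did not call, and those given here were named after their values were seen. Mmp12, the macrophage elastase, had the smallest adjusted p (limma, 3.08e-06), followed by Nnmt (3.71e-05) and Fmr1, the RNA-binding protein of the fragile X locus (0.00129). Lcp1, an actin-bundling protein of leukocytes, had an adjusted p of 0.00178, and Ctss, the lysosomal protease cathepsin S, one of 0.00195. Neither passed between the groups. Lcp1 differed by 0.38 on CD (SE 0.09, adjusted p = 0.159) and by 0.32 on HFD, and Ctss by 0.30 (SE 0.09, adjusted p = 0.458) and 0.23.

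On HFD, BXD51 had a Lep score of 11.25 and a Mest score of 11.47, the highest Mest value of the 12 low-Lep strains, while its CD scores of 7.75 and 7.78 lay within the range of its group.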
